A study of Mus musculus with 6 samples.

Results

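The genes described here encode 8 proteins with which the vessel wall starts, restrains and dissolves blood clots: tissue factor (F3), tissue factor pathway inhibitor (Tfpi), thrombomodulin (Thbd), the endothelial protein C receptor (Procr), von Willebrand factor (Vwf), tissue-type and urokinase-type plasminogen activators (Plat and Plau) and the urokinase receptor (Plaur). They were chosen by name, as the probes that are not controls and whose gene name in the scanner files is one of these 8. They form 8 of 22437 named genes on the array, and 11 of its 55681 probes. Aortic arch RNA was compared between female C57BL/6 mice that had been irradiated and given bone marrow from Mir21-/- donors and mice given marrow from Mir21+/+ donors, with 3 mice and 3 arrays per group. Every recipient was Mir21+/+, had received 2 X-ray doses of 5 Gy 4 h apart or less, and had eaten a high-fat diet for 12 weeks that began 3 weeks after irradiation. The ages of the mice and the hour of tissue collection were not given in the sources used here. Only marrow-derived cells lacked Mir21 in this model, so endothelium and smooth muscle kept it, and the share of host blood cells that survived irradiation was not given. The arrays carried 0 probes named for Mir21, so the deletion itself could not be checked.

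Blood clotting in a vessel begins when tissue factor, which sits on cells of the outer wall and on activated macrophages, meets plasma factor VII, and Tfpi blocks that complex. Healthy endothelium displays thrombomodulin, which turns thrombin from a clotting enzyme into an activator of protein C, and the protein C receptor, which presents protein C to it. Von Willebrand factor, stored in endothelial granules and in platelets, tethers platelets to an injured wall, while Plat and Plau cut plasminogen to plasmin, which dissolves fibrin. Daily rhythms in blood clotting are well known, and Thbd and Vwf are described as outputs of the circadian clock, the subject named in the series title.

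No transcript of the 7 tested genes passed the test between Mir21-/- and Mir21+/+ marrow, and for each of the 7 the arrays of the groups overlapped. Levels are log2 processed signals relative to each array's 75th percentile, and differences are Mir21-/- minus Mir21+/+ marrow, with the standard error (SE) of the limma fit. The test took in probes called well above background by the scanner software throughout 1 group or both, which kept 10 of the 11 probes. Across the 38341 tested probes, 1 passed at a Benjamini-Hochberg adjusted p under 0.05, which is 0.00261%. At an unadjusted p under 0.05, 4.44% of tested probes were higher with Mir21-/- marrow and 4.27% were lower, against 0 of the 7 genes in either direction. All Mir21-/- arrays lay above all Mir21+/+ arrays for 7.58% of tested probes and below them for 6.14%, against 0 of the 7 genes in each case. The median difference was -0.0066 over the 7 genes and 0.02 over all tested probes, and 2 differences were positive and 5 negative. In whole arch RNA, fewer cells of a type and less RNA per cell cannot be told apart.

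**Figure D1:**
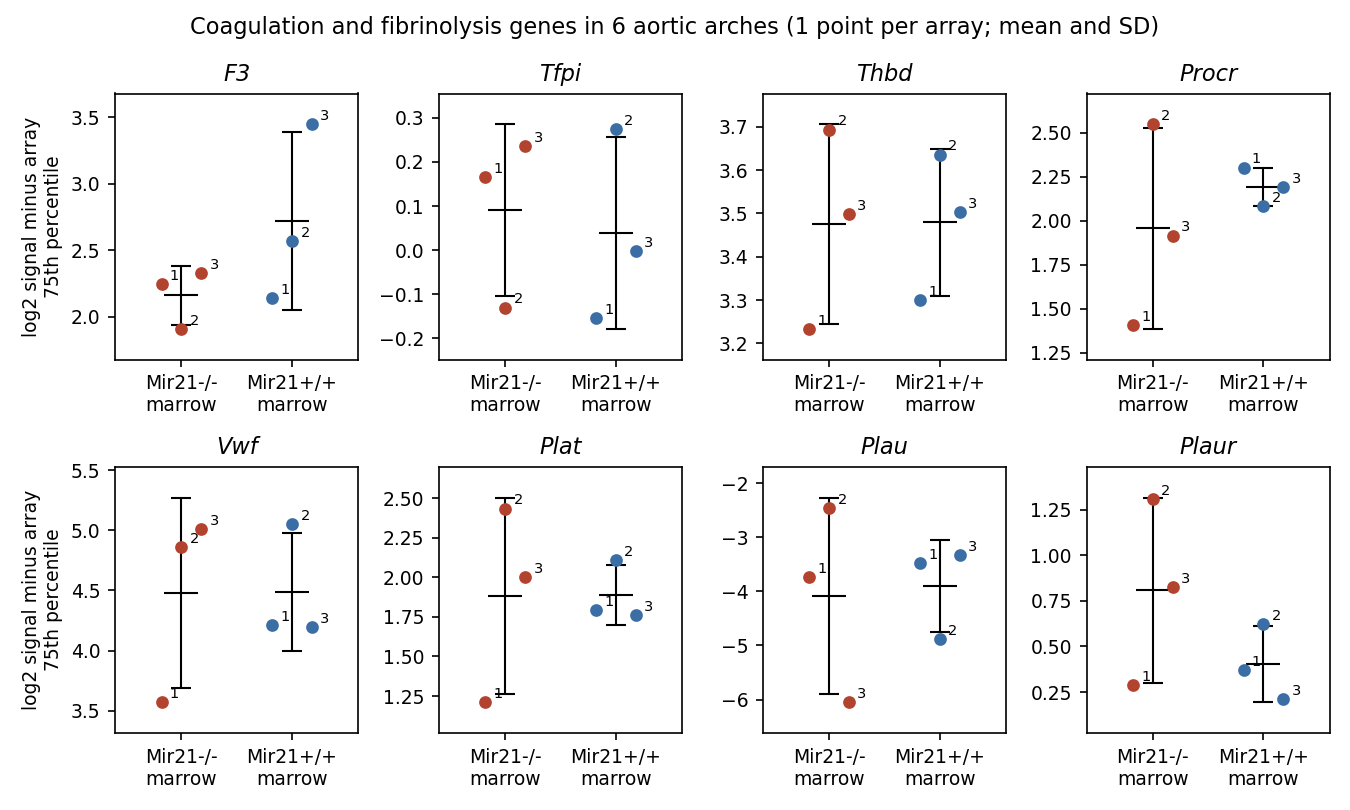
Level of each gene on each of the 6 arrays, as log2 signal relative to the array's 75th percentile, with Mir21-/- marrow left of Mir21+/+ marrow. The groups overlap for every gene, and Plau, which was not tested, is spread from -6.05 to -2.47.

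Between 66.4% and 74.4% of spots lay well above background and 0 were saturated, with the lowest share on Mir21-/- array 3. All 6 arrays shared 1 slide and 1 scan date, with Mir21-/- arrays in slide row 2 and Mir21+/+ arrays in row 1, so that slide row and marrow genotype cannot be told apart. The arch tissue was checked against 7 marker lists, and apart from the mesothelial gene Upk1b each marker gene had a probe well above background on all 6 arrays. Tissue content differed between mice. The mean deviation of the 12 adipocyte markers from their 6-array means was 1.16, -1.21 and -2.46 on the Mir21-/- arrays and 0.98, 0.33 and 1.21 on the Mir21+/+ arrays. The part of such content in the results was not tested beyond the values given beside them. Without Mir21-/- arrays 2 and 3, which were low in adipocyte markers, Vwf differed by -0.92, Procr by -0.79 and Plat by -0.68. In the same fit F3 differed by -0.47, Thbd by -0.25, Plaur by -0.11 and Tfpi by 0.13. That fit rests on Mir21-/- array 1, the lowest of the 6 arrays for Vwf, Procr, Plat and Thbd. The negative sign of those genes therefore followed from the array kept. A lone array shows no spread, so sizes alone are given here.

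Tissue factor, the trigger of clotting, had the largest difference in size among the 7 genes. Its brighter probe (mm9 chr3:121437717-121437776) read 2.25, 1.91 and 2.33 on the Mir21-/- arrays, against 2.14, 2.57 and 3.45 on the Mir21+/+ arrays. Mir21+/+ array 3 stood above the rest, and Mir21+/+ array 1 lay within the Mir21-/- range. The means were 2.16 ± 0.22 and 2.72 ± 0.67 (SD, n = 3 each), and the difference was -0.56 ± 0.33 (SE), with a 95% interval of -1.32 to 0.21 and an adjusted limma p of 0.663. Without Mir21+/+ array 3 the difference was -0.19, and without Mir21+/+ array 1 it was -0.85 with an unadjusted limma p of 0.0289.

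A second F3 probe crosses an exon junction, since its 60 bases lie on 738 bases of mm9 genome at chr3:121434609-121435346 and 678 of these are skipped. It is shown because it lies across an intron, in another part of the transcript than the brighter probe.
F3 junction probe: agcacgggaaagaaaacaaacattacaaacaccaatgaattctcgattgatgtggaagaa
This probe read -1.41, -1.82 and -1.64 on the Mir21-/- arrays and -1.66, -1.20 and -0.64 on the Mir21+/+ arrays. Mir21+/+ arrays 3 and 2 were the highest, as on the brighter probe. Its difference was -0.46 ± 0.27 (SE), with an adjusted limma p of 0.664. The deviations of both F3 probes from their own means differed by a root mean square of 0.15 over the 6 arrays.

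Tfpi, the inhibitor of the tissue factor complex, is read by 3 probes, 1 for transcript variant 2 and a pair for variant 1, per the accessions in the files. The variant 2 probe (mm9 chr2:84281022-84281081, minus strand) was the brightest and read 0.17, -0.13 and 0.24 on the Mir21-/- arrays, against -0.15, 0.28 and -0.00 on the Mir21+/+ arrays. These ranges overlap almost wholly. The difference was 0.05 ± 0.19 (SE), with a 95% interval of -0.38 to 0.49 and an adjusted limma p of 0.954.

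The variant 1 probes behaved alike and apart from the variant 2 probe. These names follow the probe labels, and whether a probe reads only 1 variant was not checked. The one at mm9 chr2:84273059-84273118 read -1.26, -0.29 and 0.14 on the Mir21-/- arrays and -0.48, -0.42 and -0.59 on the Mir21+/+ arrays. The one at mm9 chr2:84284179-84284238 read -2.45, -1.23 and -1.10 with Mir21-/- marrow and -1.91, -1.42 and -1.86 with Mir21+/+ marrow. On both, Mir21-/- array 1 was the lowest of the 6 and Mir21-/- array 3 the highest, so the Mir21-/- arrays held both ends. The differences were 0.03 ± 0.34 and 0.14 ± 0.36 (SE). The pair differed from each other by a root mean square deviation of 0.16, and from the variant 2 probe by 0.45 and 0.48.

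**Figure D2:**
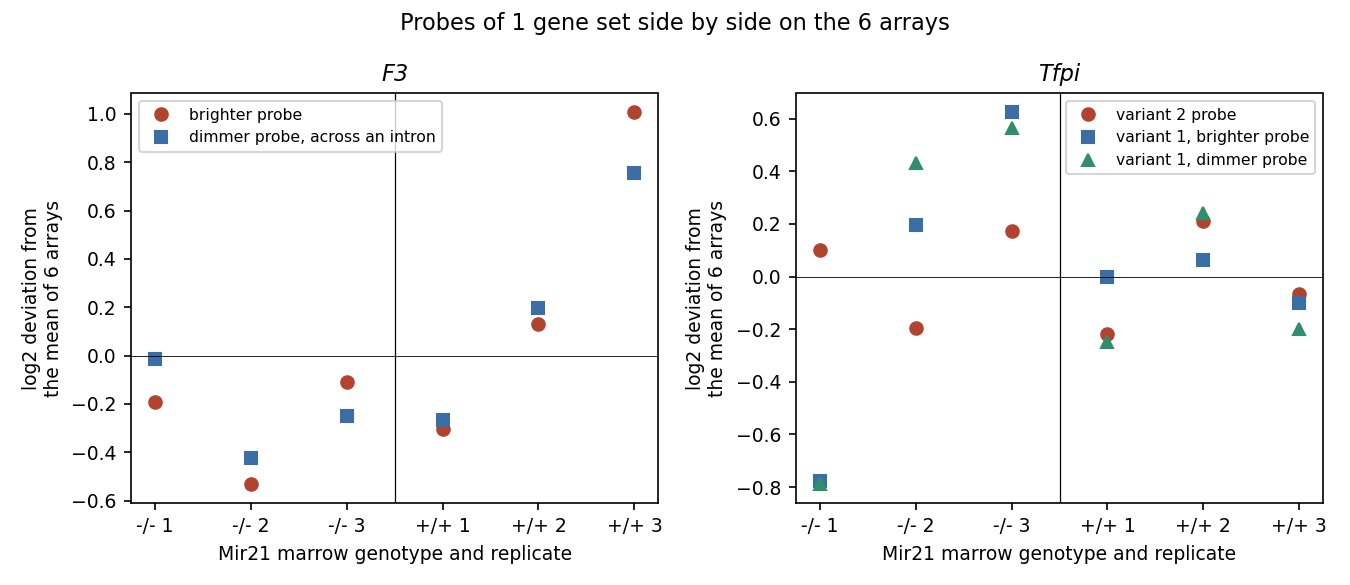
Deviation of each probe from its own mean over the 6 arrays (log2, vertical axis) for F3 and Tfpi, with Mir21-/- arrays left of Mir21+/+ arrays. The F3 probes follow each other on every array, while the Tfpi variant 1 probes lie far below their means on Mir21-/- array 1, where the variant 2 probe lies above its own.

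Promoter sequence was available from RefSeq (GRCm38.p6, 250 bases before to 50 after a start site) for 4 of the 8 genes, F3, Plaur, Procr and Tfpi, with 5 promoters in all. Because clock proteins act through E-boxes, and because human F3 and PLAUR are known targets of AP-1 and Sp1, the letters CACGTG (E-box), TGANTCA (AP-1) and GGGCGG (GC box) were searched on both strands. An E-box was present in 1 of the 5 promoters, the one of Tfpi at position +17, and in 7.15% of all 32851 promoters. The AP-1 letters stood in the promoters of F3, Plaur and Procr and in 7.81% of all promoters, and the GC box letters in 35.66%. The windows with most matches are printed because they hold both motif kinds in the genes of the clotting trigger and of the urokinase receptor; capitals mark AP-1 and GC box letters there, and the E-box in the Tfpi window.
F3 promoter, chr3:121723287-121723536, plus strand: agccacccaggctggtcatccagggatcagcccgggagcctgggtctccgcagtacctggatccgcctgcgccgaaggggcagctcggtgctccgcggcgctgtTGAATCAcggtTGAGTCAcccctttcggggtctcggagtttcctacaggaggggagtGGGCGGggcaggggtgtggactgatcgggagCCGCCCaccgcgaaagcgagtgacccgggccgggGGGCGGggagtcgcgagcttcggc
Plaur promoter, chr7:24462233-24462482, plus strand: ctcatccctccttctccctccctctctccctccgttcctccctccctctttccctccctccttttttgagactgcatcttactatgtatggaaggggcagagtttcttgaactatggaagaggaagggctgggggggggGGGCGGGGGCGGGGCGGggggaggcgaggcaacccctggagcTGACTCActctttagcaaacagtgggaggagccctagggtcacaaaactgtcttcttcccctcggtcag
Tfpi window, chr2:84476726-84476755, minus strand: tggccatctgcaCACGTGagtgataaagtc
In F3 the AP-1 letters start 146 and 135 bases before the start site, and in Plaur 69 bases before it. The Plaur GC boxes start 111, 105 and 100 bases before the start site and adjoin or overlap each other. A match is only a run of letters and does not show that a factor binds there.

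Of the anticoagulant receptors, thrombomodulin had the smallest difference in size of the 7 genes. Thbd (mm9 chr2:148230235-148230294, minus strand) read 3.23, 3.69 and 3.50 on the Mir21-/- arrays and 3.30, 3.64 and 3.50 on the Mir21+/+ arrays. The groups covered nearly the same range. The means were 3.48 ± 0.23 and 3.48 ± 0.17 (SD, n = 3 each), and the difference was -0.0045 ± 0.18 (SE), with a 95% interval of -0.44 to 0.43 and an adjusted limma p of 0.996. A change of either sign within that interval could not be seen here.

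Procr (mm9 chr2:155580945-155581004) read 1.41, 2.55 and 1.92 on the Mir21-/- arrays, against 2.30, 2.08 and 2.19 on the Mir21+/+ arrays. Mir21-/- arrays 1 and 2 were the lowest and the highest of the 6, and the Mir21+/+ arrays lay close together between them. The means were 1.96 ± 0.57 and 2.19 ± 0.11 (SD, n = 3 each), with a difference of -0.24 ± 0.28 (SE), a 95% interval of -0.90 to 0.42 and an adjusted limma p of 0.834. The difference was 0.04 without Mir21-/- array 1 and -0.53, with an unadjusted limma p of 0.0469, without Mir21-/- array 2.

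Von Willebrand factor (mm9 chr6:125636551-125636610) read 3.57, 4.86 and 5.01 on the Mir21-/- arrays and 4.21, 5.06 and 4.20 on the Mir21+/+ arrays. The lowest value belonged to Mir21-/- array 1 and the highest to Mir21+/+ array 2. The means were 4.48 ± 0.79 and 4.49 ± 0.49 (SD, n = 3 each), and the difference was -0.0082 ± 0.42 (SE). Its 95% interval of -0.98 to 0.97 was the widest among the tested members. The adjusted limma p was 0.997. Without Mir21-/- array 1 the difference was 0.45, with an unadjusted limma p of 0.178, and without Mir21+/+ array 2 it was 0.28.

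Because Vwf is made by endothelium and megakaryocytes, markers of both are given beside it. The mean deviation of the 18 endothelial markers was 0.17, -0.17 and -0.52 on the Mir21-/- arrays and 0.19, 0.21 and 0.12 on the Mir21+/+ arrays, and 14 of the 18 differences were negative, with 2 past an unadjusted p of 0.05 (Esam and Flt1). The 10 platelet markers had 0.33, -0.40 and 1.45 with Mir21-/- marrow and -0.78, 0.10 and -0.70 with Mir21+/+ marrow. All 10 of their differences were positive, with 2 past the same p (Itga2b and Ppbp). Over all tested probes, 53.2% of differences were positive. At the same limma p, 4.44% of all tested probes were higher with Mir21-/- marrow and 4.27% lower. Set against the endothelial marker mean, a scale added after seeing the data, Vwf differed by 0.34, Thbd by 0.34 and Procr by 0.11. None of them passed an unadjusted limma p of 0.05. This scale raised every gene's difference by the same amount, because the marker mean itself differed by -0.35. The median difference over the 18 markers was -0.18, and Robo4 (-1.5), Sox18 (-1.2) and Cdh5 (-1.1) lay furthest from 0. On that scale Plaur differed by 0.75, with an unadjusted limma p of 0.048 and an adjusted p of 0.381.

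Among the fibrinolysis genes, tissue-type plasminogen activator and the urokinase receptor were measured on all arrays. The Plat probe is shown because it spans the end of the reading frame, so that its place in the gene is known; the stop codon, the only letters in capitals, begins at its base 46.
Plat probe, mm9 chr8:23892531-23892590: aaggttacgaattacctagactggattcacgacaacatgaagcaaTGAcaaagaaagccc
Plat read 1.21, 2.43 and 2.00 on the Mir21-/- arrays and 1.79, 2.11 and 1.76 on the Mir21+/+ arrays. As with Procr, Mir21-/- arrays 1 and 2 held the lowest and highest values. The means were 1.88 ± 0.62 and 1.89 ± 0.19 (SD, n = 3 each), and the difference was -0.0066 ± 0.31 (SE), with a 95% interval of -0.72 to 0.71 and an adjusted limma p of 0.996. It was 0.33 without Mir21-/- array 1 and -0.28 without Mir21-/- array 2.

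Plaur (mm9 chr7:25260569-25260628) had the largest positive difference of the 7 genes. It read 0.29, 1.31 and 0.82 on the Mir21-/- arrays, against 0.37, 0.62 and 0.21 on the Mir21+/+ arrays. Mir21-/- arrays 2 and 3 lay above all Mir21+/+ arrays, and Mir21-/- array 1 within them. The means were 0.81 ± 0.51 and 0.40 ± 0.21 (SD, n = 3 each), and the difference was 0.41 ± 0.27 (SE), with a 95% interval of -0.23 to 1.04 and an adjusted limma p of 0.700. Without Mir21-/- array 1 it was 0.66 with an unadjusted limma p of 0.0213, and without Mir21-/- array 2 it was 0.16. Macrophages carry the receptor. The 12 macrophage markers deviated by 0.08, 0.93 and -0.68 on the Mir21-/- arrays and by 0.22, -0.46 and -0.08 on the Mir21+/+ arrays. The 10 smooth muscle markers deviated by -0.20, 0.27 and 0.44 on the Mir21-/- arrays and by -0.21, -0.01 and -0.28 on the Mir21+/+ arrays. The part of either cell type in the Plaur values was not tested.

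Plau (mm9 chr14:21662242-21662301) was dim and not tested. It lay well above background on 2 of 3 arrays in each group, and read -3.74, -2.47 and -6.05 with Mir21-/- marrow and -3.48, -4.88 and -3.33 with Mir21+/+ marrow. The values not well above background were those of Mir21-/- array 3 and Mir21+/+ array 2, so they have no firm level.

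**Figure D3:**
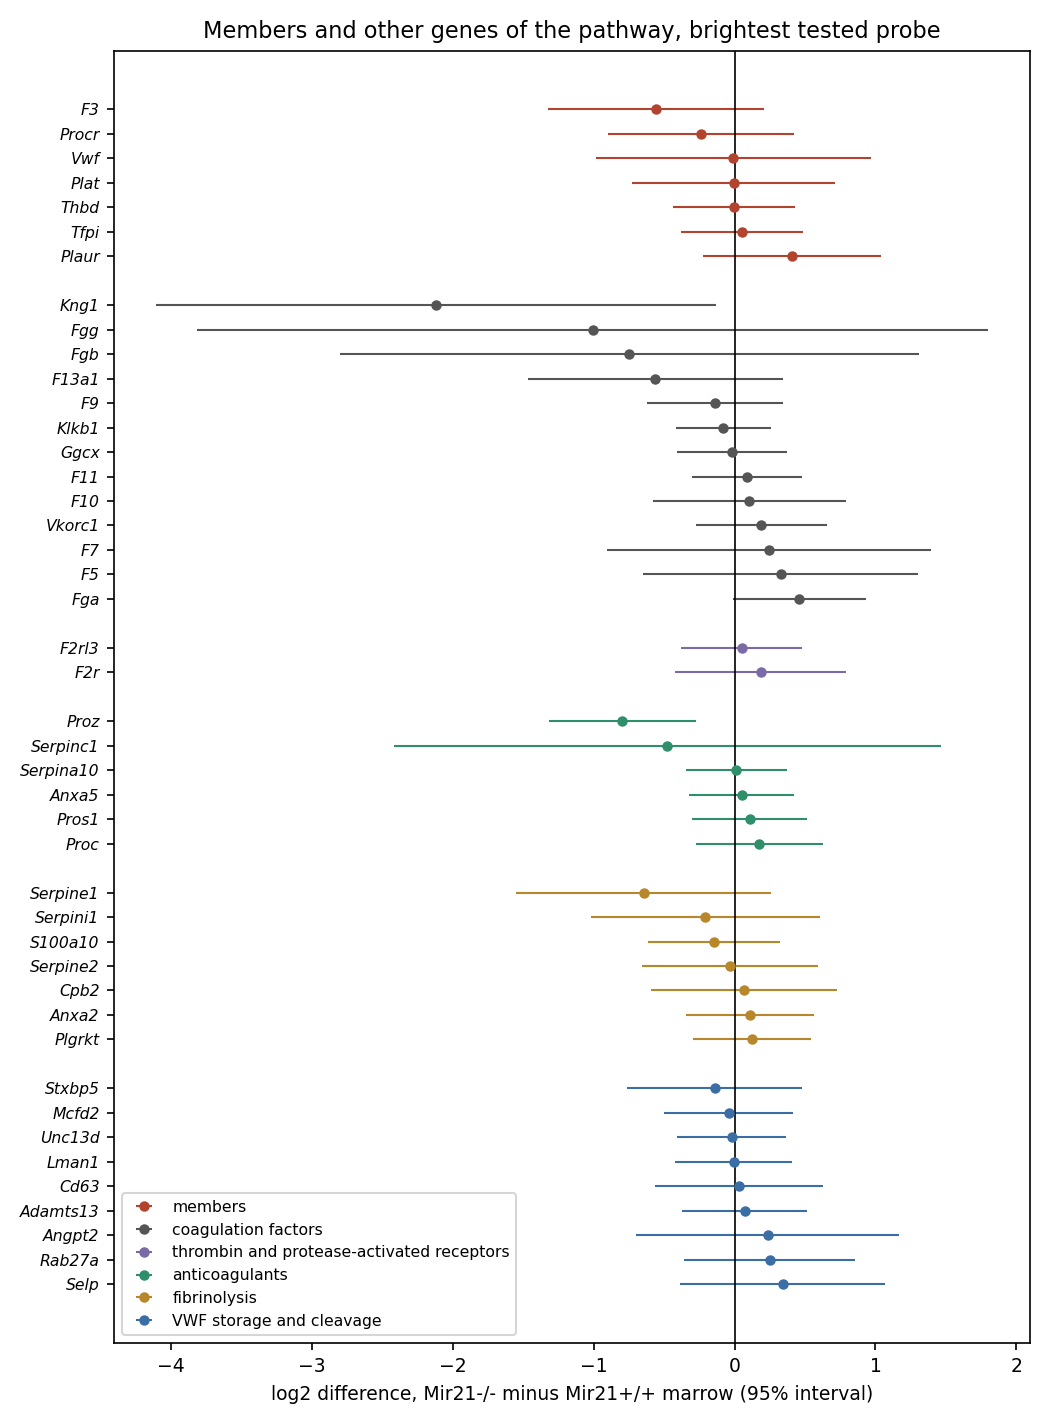
Difference of each tested member and other pathway gene, Mir21-/- minus Mir21+/+ marrow on the log2 scale, as a point with its 95% interval from the limma fit. Every interval of the members spans 0, from the narrow ones of Tfpi and Thbd to that of Vwf, which runs from -0.98 to 0.97. Among the other pathway genes, those of Proz (-1.32 to -0.27) and Kng1 (-4.10 to -0.13) do not.

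Spread within a group was uneven. The Mir21-/- SD exceeded the Mir21+/+ SD in 5 of the 7 genes, and in 68.5% of all tested probes. Mir21-/- array 1 was the lowest of the 6 arrays for 4 of the 7 genes (Thbd, Procr, Vwf and Plat), and for 21.4% of all tested probes. On that array the mesothelial markers deviated by 1.28 and the cardiac muscle markers by 1.40. As a description over 6 arrays that share their mice, Plat was closest to Procr and to Plaur, with a root mean square difference of deviations of 0.22 in both pairs, and Tfpi to Thbd, with 0.23. F3 lay apart, at 0.49 to 0.78 from each other gene.

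**Figure D4:**
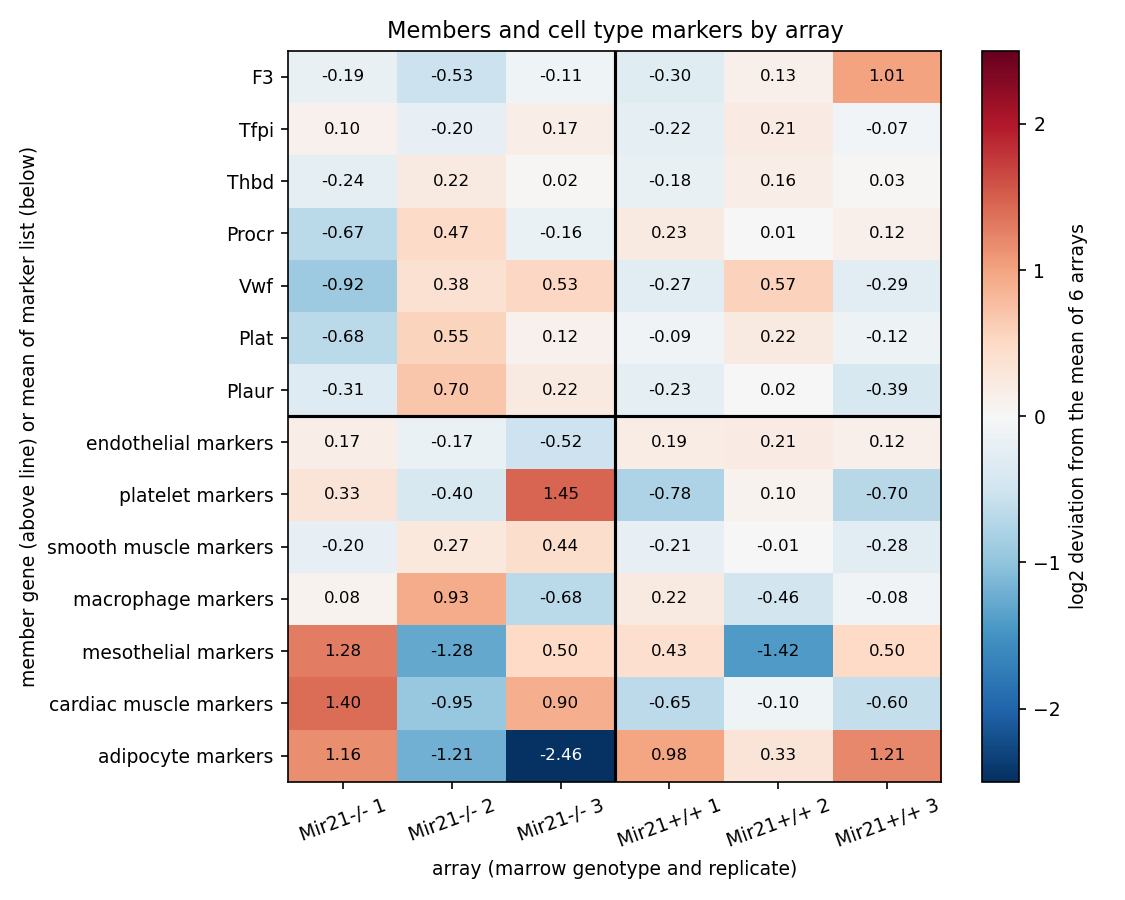
Deviation of each tested gene from its own mean over the 6 arrays (log2), with Mir21-/- arrays left of Mir21+/+ arrays. Mir21-/- array 1 is low for Vwf, Plat and Procr, and F3 is high on Mir21+/+ array 3.

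By the same measure over 17535 genes, the gene closest to F3 was Rfx5 (0.08), to Plat Ifngr2 (0.06), to Plaur Soat1 (0.07), to Procr Metrnl (0.05), to Tfpi Clasrp (0.03) and to Vwf Dhh (0.09). The next in order were Olfr715b for F3 (0.13), Zfp82 for Plat (0.07), Fbn1 for Plaur (0.08), Lrp12 for Procr (0.09), Sinhcaf for Tfpi (0.03), Chmp1a for Thbd (0.04) and Fam25c for Vwf (0.12).

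The rest of the pathway was read from lists of 49 genes chosen by role, of which 37 were tested. None passed at an adjusted p under 0.05. At an unadjusted limma p under 0.05, 0 were higher and 2 lower with Mir21-/- marrow. Over all tested probes, 4.44% were higher and 4.27% lower at that p, so the count is not above that share. Without Mir21+/+ array 1 or Mir21+/+ array 3, 1 pathway gene passed the unadjusted test. The median difference was 0.03 over the 37 genes, although their mean level was lower by 0.11 with Mir21-/- marrow, so that median and mean differ in sign. By role, 13 of 17 coagulation factors, 2 of 4 thrombin receptors, 6 of 9 anticoagulants, 7 of 10 fibrinolysis genes and all 9 genes of Vwf storage and cleavage were tested. Their medians ran from -0.03 in fibrinolysis to 0.12 in the receptors.

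F2r, the main thrombin receptor, differed by 0.19 ± 0.26 and Pros1, the protein C cofactor, by 0.11 ± 0.18 (SE). Proc, protein C itself, differed by 0.17 ± 0.19 (SE), with an adjusted limma p of 0.819. S100a10, which binds plasminogen and Plat at the cell surface, differed by -0.15 ± 0.20 (SE). Of the storage genes, Selp, an adhesion receptor of the same granules as Vwf, differed by 0.34 ± 0.31 and Rab27a by 0.25 ± 0.26 (SE).

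The 2 pathway genes past the unadjusted test were Proz and Kng1. Proz, a cofactor of an inhibitor of factor X, read -0.23, -0.98 and -0.77 on the Mir21-/- arrays and 0.14, 0.00 and 0.27 on the Mir21+/+ arrays, without overlap. All Mir21-/- arrays lay below all Mir21+/+ arrays for 6.14% of all tested probes. The Proz difference was -0.80 ± 0.22 (SE), with an adjusted limma p of 0.456. Kng1, a kininogen gene, read 3.20, -0.58 and 0.48 on the Mir21-/- arrays, against 3.37, 2.69 and 3.39 on the Mir21+/+ arrays. The Kng1 difference was -2.12 ± 0.85 (SE), with an adjusted limma p of 0.560. The low Kng1 values were on Mir21-/- arrays 2 and 3, which were also low in adipocyte markers, and the mouse paralog Kng2 may share its signal. Neither gene's second probe was tested: that of Proz was well above background on 0 arrays, and that of Kng1 on 1 Mir21-/- array and 0 Mir21+/+ arrays. Of the Proz probes, only the untested one is labelled with a RefSeq transcript. Whether the tested Proz probe reads that transcript was not checked. Fga, a fibrinogen chain, differed by 0.46 ± 0.20 (SE) with an unadjusted limma p of 0.054, and all its Mir21-/- arrays lay above the Mir21+/+ arrays on the brighter probe only. Over all tested probes, 7.58% had that order.

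For the clock itself, Arntl, its core activator, averaged 1.66 ± 0.49 with Mir21-/- marrow and -1.85 ± 1.17 with Mir21+/+ marrow (SD, n = 3 each), and its arrays did not overlap. Dbp, a clock output, averaged 1.95 ± 1.14 with Mir21-/- marrow and 6.14 ± 0.59 with Mir21+/+ marrow. Their differences of 3.51 ± 0.56 and -4.19 ± 0.56 (SE) had adjusted limma p of 0.356 and 0.326. The arrays of Dbp did not overlap either. All Mir21-/- arrays lay above all Mir21+/+ arrays for 7.58% of tested probes and below them for 6.14%. With shares that small, overlap in all 7 clotting and fibrinolysis genes does not set them apart from other genes.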

How the data were processed

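One-colour Agilent arrays of 6 aortic arches were read. The deposited intensity values, per the file headers, came from Agilent Feature Extraction 10.7.3.1, with background subtraction by the authors' scanner software. The authors' series table differed from these intensity values by at most 0.497%. From them log2 values were computed as processed signal minus each array's 75th percentile, with outlier spots left out, on 62976 spots per array. Coordinates are the mm9 positions in the files. Exon and untranslated region were not analysed here. The test was limma 3.58.1 (lmFit, then eBayes; R 4.3.3), two-sided, over 38341 probes, with Benjamini-Hochberg adjustment. The brightest tested probe stood for a gene. The genes named were all members, F2r and Pros1, the 2 smallest p of each pathway list, Arntl and Dbp, and the 2 most like each member; some genes under this rule are not reported here. The members and lists were chosen with earlier results of these data known. The labels do not say whether the replicate numbers pair mice. Deviations from the group mean of each probe correlated at 0.12, 0.05 and -0.28 between samples of the same number. These samples were not treated as pairs. Sequences came from the probe column and RefSeq.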

Additional observations from a re-analysis of the deposited data

How the results depend on the processing

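Over 17 alternatives, 97 of 119 member differences kept their sign and 22 did not, and the smallest adjusted limma p of a member was 0.193 (Plaur with array weights). With a replicate block the counts were 0 members, 2 pathway genes and 1 probe past the adjusted test, so it changed no call. Levels set against the endothelial marker mean were added after seeing the data. The median over members was -0.47 without Mir21-/- arrays 2 and 3, 0.34 against endothelial markers and -0.20 to 0.12 leaving out each array. Members past an unadjusted p of 0.05 numbered 1 with array weights, 0 to 1 leaving out each array, 2 without Mir21-/- arrays 2 and 3 and 1 against endothelial markers. Pathway genes numbered 1 with no filter, 4 with array weights, 1 to 3 leaving out each array and 6 without Mir21-/- arrays 2 and 3. Probes past the adjusted test numbered 4 with normexp, 2 with median centring, 2 with trended variance, 2 with array weights, 1 to 2 leaving out each array and 17 against endothelial markers. Signs turned for Plat (0.016 with quantile, 0.29 with weights, 0.34 against endothelial markers, -0.28 to 0.33 leaving out each array), Vwf (0.047, 0.37, 0.34 and -0.27 to 0.45) and Thbd (0.033, 0.11, 0.34 and -0.11 to 0.12, and 0.0002 with median centring). They also turned for Procr (0.11 against endothelial markers, -0.53 to 0.040 leaving out each array), Tfpi (-0.046 to 0.17) and Plaur (-0.11 without Mir21-/- arrays 2 and 3). With 3 arrays a group, precision is limited by their number.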

Other observations

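Tested probes of 1 gene were furthest apart for F7 and F10 among the pathway genes, and for F10 and F2rl3 the dimmer probe alone passed an unadjusted limma p of 0.05. The brighter F7 probe, for the plasma partner of tissue factor, differed by 0.25 ± 0.49 (SE), and the dimmer by 1.56 ± 0.76 (SE) with an adjusted limma p of 0.612. The brighter F10 probe, for the factor that makes thrombin from prothrombin, differed by 0.11 ± 0.29 (SE), and the dimmer by 1.15 ± 0.45 (SE) with an adjusted limma p of 0.550. The brighter F2rl3 probe, for a thrombin receptor of platelets, differed by 0.05 ± 0.18 (SE), and the dimmer by 0.60 ± 0.22 (SE) with an adjusted limma p of 0.543.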
